A study of Homo sapiens with 6 samples.

Results

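Serine synthesis and folate one-carbon metabolism were followed through 9 genes, taken by symbol from tables of 19942 gene symbols. They encode the 3 enzymes of the serine pathway (PHGDH, PSAT1 and PSPH), the mitochondrial folate enzymes SHMT2, MTHFD2, MTHFD1L and ALDH1L2, the cytosolic folate enzyme MTHFD1 and the amino acid carrier SLC1A4. RNA-seq had been made from HCT116, an established human colorectal carcinoma line, as 5-fluorouracil resistant cells and as parental (wild-type) cells. EHMT2 encodes G9a, a histone H3 lysine methyltransferase, and the study asked about its part in drug resistance. The 6 groups were resistant cells given EHMT2 siRNA, resistant cells given control siRNA and resistant cells for which the labels name no siRNA, then parental cells given EHMT2 siRNA, control siRNA and no siRNA. Each group held 1 library, so no difference between 2 libraries has a replicate check. The series text speaks of replicates, and any others were not analysed here. The labels do not give how the resistant cells were selected, the siRNA sequences or the time after transfection.

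Cells make serine from the glycolytic intermediate 3-phosphoglycerate in 3 steps. SHMT2 then splits serine into glycine and a one-carbon unit in mitochondria, and the folate enzymes turn that unit into formate, which the cytosol uses to build purines and thymidylate. In cancer cells several of these genes are known targets of the amino acid stress factor ATF4, and G9a has been reported to sustain the transcription of serine pathway genes. 5-Fluorouracil acts in part by blocking thymidylate synthase, which draws on the same folate pool.

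The RefSeq promoter windows of build GRCh38.p14 (250 bases before and 50 after a start) covered 6 of the 9 genes, and stretches of them are shown. Most of these genes varied alike over the libraries, though MTHFD1 did not, and any part of promoter elements in this was not tested. The windows of PSPH, SHMT2 and ALDH1L2 were not used here. Annotated exons of any gene covered 250 of the 250 bases before the start in MTHFD1, 249 in MTHFD2 and 219 in PHGDH. In PSAT1 they covered 0, and in the windows of MTHFD1L and SLC1A4 at most 55. The PHGDH start used (119711934) lies inside the annotated gene, which begins at 119648411. Both strands were searched for the ATF4-type element TGATGNAA, the E-box CACGTG, the CCAAT box and the cyclic AMP element TGACGTCA, none of which overlapped another in the stretches shown. The PSAT1 line runs over the 250 bases before the start, at chr9:78296875-78297124 (plus strand), with 3 CCAAT boxes in capitals. The others give 30 bases on the plus strand, with the match in capitals: PHGDH at chr1:119711851-119711880, MTHFD2 at chr2:74198529-74198558, MTHFD1L first at chr6:150866346-150866375 (TGATGNAA) and then at chr6:150866320-150866349 (E-box), SLC1A4 at chr2:64989381-64989410 (TGATGNAA, read on the minus strand) and MTHFD1 at chr14:64388326-64388355 (E-box).
PSAT1: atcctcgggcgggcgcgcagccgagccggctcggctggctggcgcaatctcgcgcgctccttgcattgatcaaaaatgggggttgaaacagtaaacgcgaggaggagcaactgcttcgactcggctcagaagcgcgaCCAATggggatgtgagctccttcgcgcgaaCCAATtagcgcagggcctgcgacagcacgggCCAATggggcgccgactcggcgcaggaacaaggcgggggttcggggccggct
PHGDH: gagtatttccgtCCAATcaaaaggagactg
MTHFD2: atgcggcagggaCCAATgggtggcggaggg
MTHFD1L: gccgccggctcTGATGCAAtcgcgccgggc
MTHFD1L: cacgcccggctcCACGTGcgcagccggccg
SLC1A4: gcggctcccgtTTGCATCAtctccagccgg
MTHFD1: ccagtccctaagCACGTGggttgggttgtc

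The CCAAT box was found in all 6 genes with a window, and in 39.7% of the 27305 genes with one. TGATGNAA was found in 2 of the 6, MTHFD1L and SLC1A4, against 4.46% of all genes with a window and 3.62% of all 35116 windows. The 6 genes had 10 windows, and MTHFD1L and SLC1A4 alone had several each, so a match was easier to find in them. The E-box was found in MTHFD1L and MTHFD1, against 8.77% of all, and the cyclic AMP element in 0 of the 6, against 2.25% of all. These are matches of letters, and binding was not measured.

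EHMT2 had 3.80 FPKM (fragments per kilobase of transcript, scaled to the reads mapped) with EHMT2 siRNA, 19.5 with control siRNA and 27.3 without siRNA in resistant cells, against 8.58, 31.7 and 19.8 in parental cells. The knockdown left 19.5% of the control siRNA level in resistant cells and 27.1% in parental cells. EHMT1, its partner in the methyltransferase complex, had 15.5 FPKM with EHMT2 siRNA and 16.5 with control siRNA in resistant cells, and 19.3 and 21.5 in parental cells. Of 10 colorectal epithelial markers 6 were at 1 FPKM or more in every library, with VIL1, LGALS4, CDX1 and CEACAM5 at 0. Their summed level ranged over 1642 to 2563 FPKM, while fibroblast markers summed to 3.35 to 9.79, all of it COL1A1, leukocyte markers to 0.372 to 5.64 and endothelial markers to at most 0.332. The libraries' summed FPKM lay between 360695 and 446143, and 9.74% to 26.2% of it came from mitochondrial genes. Across 12310 genes the EHMT2 siRNA libraries correlated with the other 4 at r = 0.913 to 0.943. Among those 4, the resistant library without siRNA correlated with the rest at r = 0.942 to 0.949, and the other 3 with each other at 0.966 to 0.973. Tests are given with and without the untransfected pair.

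PHGDH, the first and committed enzyme of serine synthesis (chr1:119648411-119744226, plus strand, GENCODE 29 on GRCh38), had 58.8 FPKM in EHMT2 siRNA, 97.1 in control siRNA and 46.0 in siRNA-free resistant cells. In parental cells it had 21.4 FPKM with EHMT2 siRNA, 50.3 with control siRNA and 67.1 without siRNA. Resistant control siRNA cells were the highest and parental EHMT2 siRNA cells the lowest, and the ranges of the lines overlapped. PSAT1, the aminotransferase of the second step (chr9:78297143-78330093, plus strand), had 125, 132 and 62.8 FPKM in resistant cells and 55.2, 56.9 and 112 in parental cells, in the same order of treatments. Here the EHMT2 siRNA and control siRNA libraries of a line lay side by side, and the untransfected library was the odd one in each line, low in resistant and high in parental cells. PSPH, the phosphatase that releases serine (chr7:56011051-56051604, minus strand), had 15.9, 23.8 and 17.6 FPKM in resistant cells and 10.5, 15.9 and 23.4 in parental cells. Its lowest library was parental EHMT2 siRNA cells, as for PHGDH. In bulk RNA of this kind, fewer cells expressing a gene and less RNA per cell cannot be told apart.

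SHMT2, which moves the one-carbon unit of serine onto folate in mitochondria (chr12:57229327-57234935, plus strand), had 85.7 FPKM with EHMT2 siRNA, 80.6 with control siRNA and 65.2 without siRNA in resistant cells, and 56.0, 65.5 and 78.3 in parental cells. MTHFD2, the dehydrogenase and cyclohydrolase of the next step (chr2:74198562-74217565, plus strand), had 95.8, 89.4 and 75.2 FPKM in resistant cells and 56.6, 67.0 and 102 in parental cells. Both genes ran downward from EHMT2 siRNA to no siRNA in resistant cells and upward in parental cells. MTHFD1L, which releases formate (chr6:150865549-151101887, plus strand), had 24.0, 27.1 and 21.6 FPKM in resistant cells and 17.9, 19.7 and 28.9 in parental cells. ALDH1L2, the mitochondrial 10-formyltetrahydrofolate dehydrogenase (chr12:105019784-105084577, minus strand), had 0.325, 0.228 and 0.239 FPKM in resistant cells. In parental cells it was listed at 0 with EHMT2 siRNA and with control siRNA, and at 0.875 FPKM without siRNA. It was below 1 FPKM in every library, so it was left out of medians and tests, which cover the other 8 genes.

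MTHFD1, the cytosolic enzyme that carries 3 of the folate steps (chr14:64388031-64463457, plus strand), had 39.9 FPKM with EHMT2 siRNA, 47.9 with control siRNA and 40.4 without siRNA in resistant cells, and 39.2, 54.8 and 33.7 in parental cells. Control siRNA cells were the highest in each line, and the libraries of the lines overlapped. SLC1A4, a neutral amino acid exchanger that carries serine (chr2:64988477-65023865, plus strand), had 2.49, 3.28 and 2.40 FPKM in resistant cells and 0.508, 1.15 and 3.23 in parental cells. Parental EHMT2 siRNA cells were again lowest. Of these genes' exonic bases, 33.2% in MTHFD2, 11.0% in MTHFD1, 9.51% in SHMT2 and 1.70% in ALDH1L2 are shared with other annotated genes. Since the strand setting of the counting is not given, reads of such overlapping genes cannot be told apart. PSAT1 has 4 annotated pseudogenes, MTHFD2 has 7, and PSPH and MTHFD1 have 1 each, whose reads the counting could have divided.

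**Figure D1:**
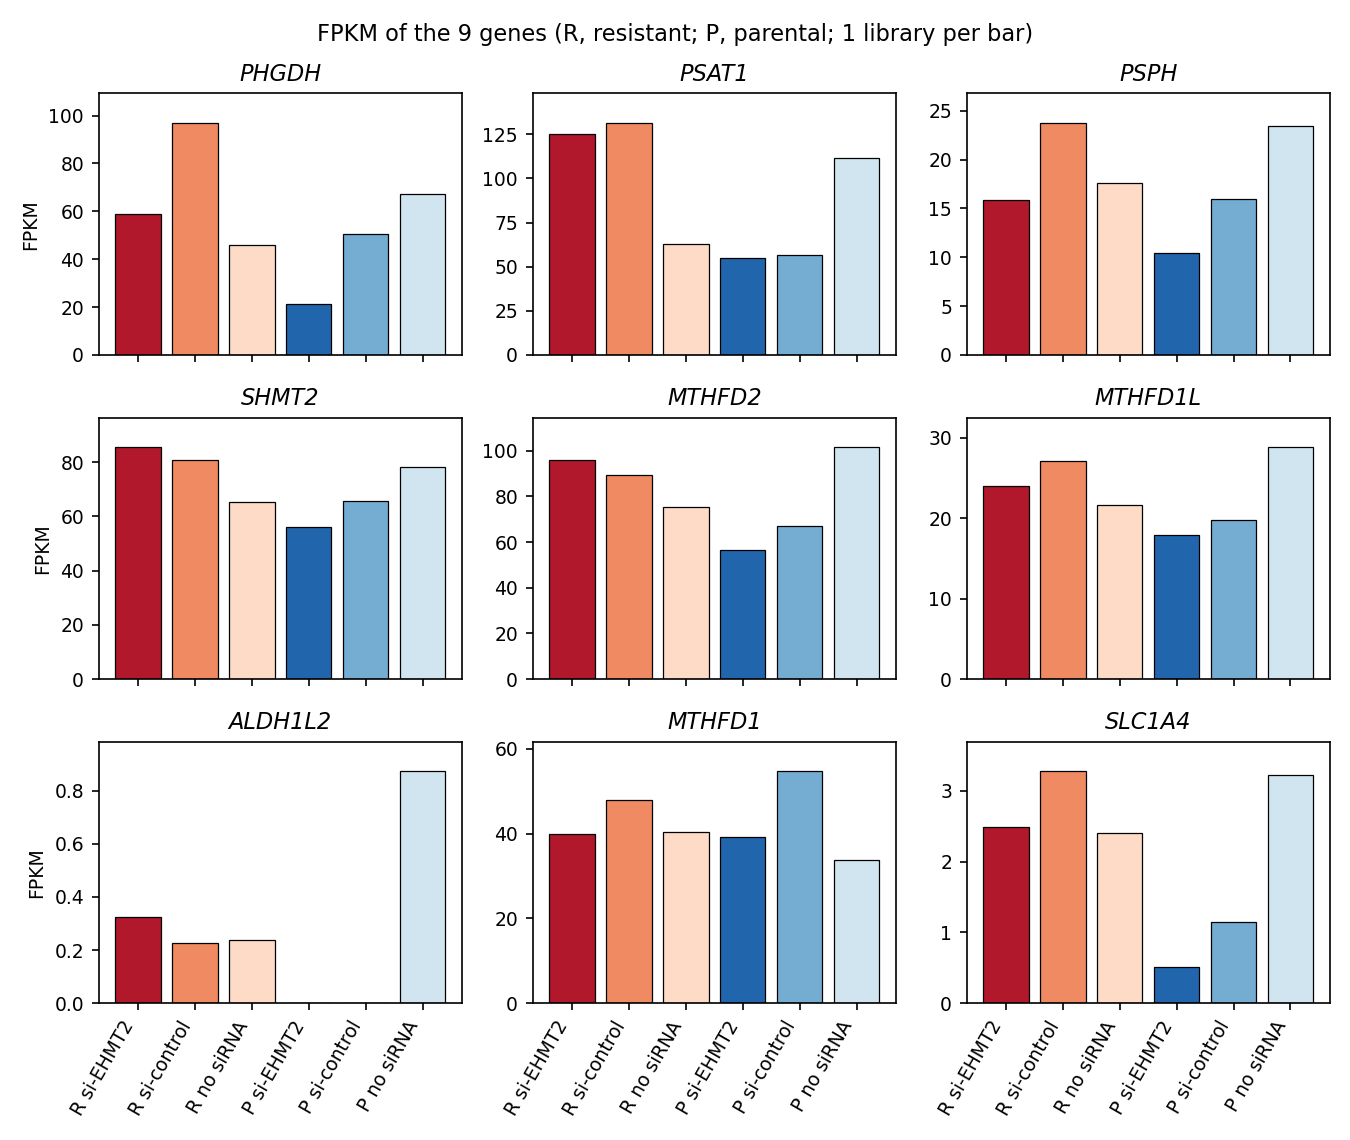
FPKM of the 9 genes in the 6 libraries, with 1 bar per library, resistant cells (R, red) left of parental cells (P, blue), each with EHMT2 siRNA, control siRNA and no siRNA, and a separate scale per gene. Parental EHMT2 siRNA cells had the lowest bar of PHGDH (21.4 FPKM), PSAT1 (55.2), PSPH (10.5), SHMT2 (56.0), MTHFD2 (56.6), MTHFD1L (17.9) and SLC1A4 (0.508), but not of MTHFD1.

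FPKM is scaled by gene length, so levels can be ordered between genes. By their median over the 6 libraries the order was PSAT1 (87.3 FPKM), MTHFD2 (82.3), SHMT2 (71.9), PHGDH (54.6), MTHFD1 (40.1), MTHFD1L (22.8), PSPH (16.7), SLC1A4 (2.45) and ALDH1L2 (0.233). The ranges of neighbours overlapped except at 2 places: the lowest MTHFD1 library (33.7 FPKM) lay above the highest MTHFD1L library (28.9 FPKM), and the lowest PSPH library (10.5 FPKM) above the highest SLC1A4 library (3.28 FPKM). From the lowest to the highest library SLC1A4 spanned 6.47-fold, PHGDH 4.54-fold, PSAT1 2.39-fold and PSPH 2.27-fold. The folate enzymes at 1 FPKM or more spanned less, between 1.53-fold for SHMT2 and 1.80-fold for MTHFD2. The 8 genes together had 448 FPKM with EHMT2 siRNA, 501 with control siRNA and 331 without siRNA in resistant cells, and 257, 331 and 448 in parental cells.

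Against control siRNA, EHMT2 siRNA went with lower PHGDH in both lines. Against no siRNA, PHGDH was higher with EHMT2 siRNA in resistant cells (58.8 against 46.0 FPKM) and lower in parental cells (21.4 against 67.1). The gene was at 60.5% of its control siRNA level in resistant cells and at 42.5% in parental cells, log2 ratios (of FPKM + 1, as throughout) of −0.71 and −1.20. PSPH had ratios of −0.55 and −0.56, while PSAT1, the enzyme between them, had −0.07 and −0.04, the last of which was 0.08 when all libraries were scaled to the same FPKM sum. Along the serine pathway the levels of the first and last enzymes thus differed between EHMT2 siRNA and control siRNA cells by more than the level of the middle one. PSAT1 over PHGDH, as a ratio of FPKM, came to 2.13 in resistant EHMT2 siRNA cells against 1.36 in resistant control siRNA cells, and to 2.58 against 1.13 in the parental ones.

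The mitochondrial folate genes had ratios nearer 0. SHMT2 had knockdown ratios of 0.09 in resistant and −0.22 in parental cells, MTHFD2 0.10 and −0.24, and MTHFD1L −0.17 and −0.13. MTHFD1 had −0.26 and −0.47, and SLC1A4 −0.30 and −0.51. The median of the 8 genes was −0.21 in resistant cells and −0.36 in parental cells, while over all 12310 genes at 1 FPKM or more in any library it was 0.06 and 0.09. Of the 8 genes 6 were lower with EHMT2 siRNA in both lines and 0 higher in both, against 35.5% lower and 46.1% higher in both over all genes. The 6 include PSAT1, whose parental ratio of −0.04 was 0.08 with all libraries scaled to the same FPKM sum. At least 2-fold lower were 0 of them in resistant cells, where 4.04% of all genes were, and 1 (PHGDH) in parental cells, where 3.51% of all genes were. SLC1A4, at 44.3% of its control siRNA FPKM in parental cells, would be a second one there with 0.1 in place of 1 added to each FPKM, at a log2 ratio of −1.04.

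In limma's moderated test on log2(FPKM + 1) over all 6 libraries, with line and treatment as terms, 0 of 11521 genes (0%) passed an adjusted p of 0.05 for EHMT2 siRNA against control siRNA. Unadjusted, 3060 genes were below 0.05, and EHMT2 itself had an adjusted p of 0.0636. PHGDH had a coefficient of −0.96 (SE 0.47, limma with Benjamini-Hochberg adjusted p = 0.255), PSPH one of −0.56 (SE 0.29, adjusted p = 0.276) and MTHFD1 one of −0.37 (SE 0.19, adjusted p = 0.276). The other 5 had coefficients between −0.40 and −0.06 and adjusted p of 0.554 or more. With the 4 siRNA libraries alone 1 residual degree of freedom is left, and a gene's own spread is that between the lines' knockdown ratios. The moderation adds a prior spread taken from all genes (5.72 degrees of freedom), which weighs more than the gene's own in each SE and p. In that fit 2156 genes (18.7%) fell and 2746 (23.8%) rose in EHMT2 siRNA cells. PHGDH fell there by 0.96 on the log2 scale (SE 0.14, limma adjusted p = 0.00345, lower in both lines), PSPH by 0.56 (SE 0.12, adjusted p = 0.0107) and MTHFD1 by 0.37 (SE 0.12, adjusted p = 0.0427). SLC1A4 did not pass (adjusted p = 0.0839), nor did PSAT1, SHMT2, MTHFD2 or MTHFD1L (0.320 or more). So 3 of the 8 fell against control siRNA, a call that holds without the untransfected pair and not with it. MTHFD1 with EHMT2 siRNA had 39.9 FPKM against 40.4 without siRNA in resistant cells, and 39.2 against 33.7 in parental cells. PSPH was below its untransfected level in both resistant (15.9 against 17.6) and parental cells (10.5 against 23.4), and PHGDH in parental cells alone.

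**Figure D2:**
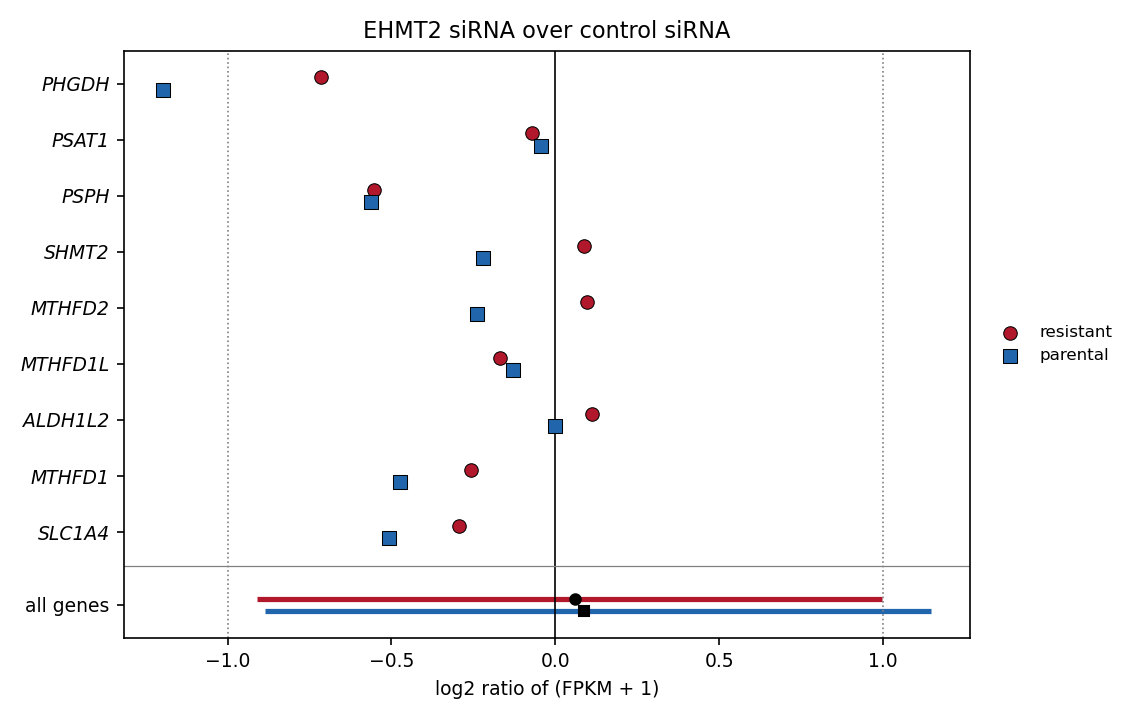
Log2 ratio of EHMT2 siRNA over control siRNA cells for each gene, resistant cells as red circles and parental cells as blue squares, with 1 library on each side of a ratio. The bottom lines span the 5th to the 95th percentile of all genes in each line, with the median marked, and dotted lines stand at 2-fold. With 1 added to each FPKM, PHGDH in parental cells (−1.20) lay past 2-fold and no other gene did, while SHMT2, MTHFD2 and ALDH1L2 had ratios above 0 in resistant cells.

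Markers of dividing cells were lower in the same libraries. The 10 genes of the list (MKI67, TOP2A, PCNA, MCM2, MCM5, CCNB1, CCNE2, E2F1, AURKB and BUB1) summed to 172 FPKM with EHMT2 siRNA and 335 with control siRNA in resistant cells, and to 271 and 493 in parental cells. Their median knockdown ratio was −0.94 in each line. In the fit to the 4 siRNA libraries 9 of 10 fell and 0 rose (limma, adjusted p below 0.05 over all genes), where 18.7% and 23.8% of all genes did. The part of cell division in the lower PHGDH, PSPH and MTHFD1 levels was not tested.

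Between the lines, the genes of the pathway other than MTHFD1 were higher in resistant than in parental cells when both were given an siRNA. With EHMT2 siRNA the resistant over parental log2 ratio was 1.42 for PHGDH, 1.17 for PSAT1, 0.56 for PSPH and 1.21 for SLC1A4, the last of which was 2.09 with 0.1 in place of 1 added to each FPKM. With control siRNA the ratios of these 4 were 0.93, 1.20, 0.55 and 1.00. SHMT2 had 0.60 with EHMT2 siRNA and 0.30 with control siRNA, MTHFD2 0.75 and 0.41, and MTHFD1L 0.40 and 0.44. MTHFD1 had ratios nearer 0, at 0.03 and −0.19, the first of which was −0.01 with all libraries scaled to the same FPKM sum.

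Without siRNA, 7 of the 8 were lower in resistant than in parental cells. The resistant over parental ratio was then −0.54 for PHGDH, −0.82 for PSAT1, −0.39 for PSPH, −0.26 for SHMT2, −0.43 for MTHFD2, −0.40 for MTHFD1L and −0.31 for SLC1A4, and 0.25 for MTHFD1. The median of the 8 was 0.68 with EHMT2 siRNA, 0.50 with control siRNA and −0.40 without siRNA, against −0.05, −0.01 and 0.06 over all genes. With EHMT2 siRNA 3 of them (PHGDH, PSAT1 and SLC1A4) were at least 2-fold higher in resistant cells, where 1.54% of all genes were. With control siRNA 1 (PSAT1) was, where 1.6% of all genes were, and SLC1A4, 2.87-fold higher in FPKM, joined it with 0.1 added (log2 ratio 1.44), and without siRNA 0 were 2-fold lower, where 3.92% of all genes were.

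In the limma fit to all 6 libraries no gene (0%) passed for resistant against parental cells, and 603 had an unadjusted p below 0.05. The coefficients of the 8 genes lay between 0.03 for MTHFD1 and 0.63 for SLC1A4, with adjusted p of 0.941 or more. With the 4 siRNA libraries alone, 517 genes (4.49%) rose and 515 (4.47%) fell in resistant cells, and 5 of the 8 were among those that rose. PSAT1 rose by 1.18 (SE 0.11, limma adjusted p = 0.00589), PHGDH by 1.18 (SE 0.14, adjusted p = 0.0124), SLC1A4 by 1.10 (SE 0.16, adjusted p = 0.0181), MTHFD2 by 0.58 (SE 0.13, adjusted p = 0.0402) and PSPH by 0.56 (SE 0.12, adjusted p = 0.0375), each higher in resistant cells in 2 of 2 siRNA pairs. MTHFD1L (0.42, adjusted p = 0.0656) and SHMT2 (0.45, adjusted p = 0.0669) just missed, and MTHFD1 had −0.08. These calls were made without the untransfected pair, whose ratios had the opposite sign for each of the 5. The 10 cell division genes had resistant over parental medians of −0.65 with EHMT2 siRNA, −0.55 with control siRNA and 0.69 without siRNA, opposite in sign to the medians of the 8 each time, and their part in these ratios was not tested.

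**Figure D3:**
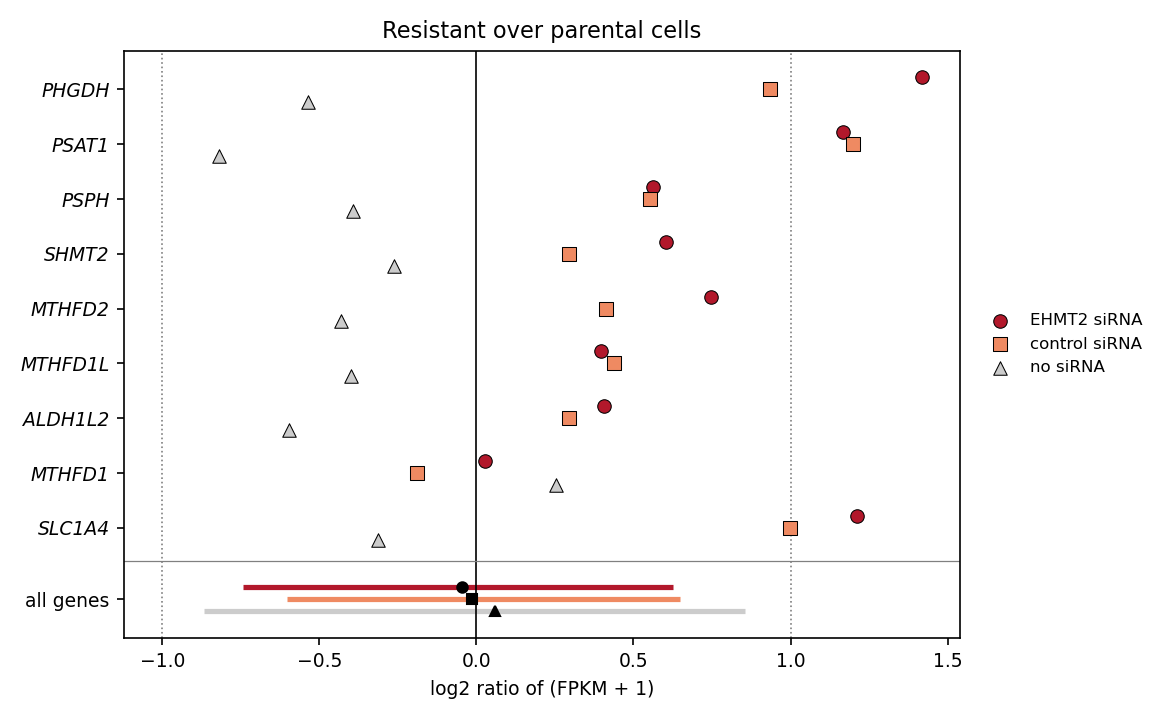
Log2 ratio of resistant over parental cells for each gene, with EHMT2 siRNA (red circles), control siRNA (orange squares) and no siRNA (grey triangles), 1 library on each side of a ratio. The bottom lines span the 5th to the 95th percentile of all genes, with the median marked, and dotted lines stand at 2-fold. The triangles lay left of 0 and the other symbols right of it for every gene but MTHFD1.

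Control siRNA cells were also set against untransfected cells of the same line, in ratios that share their libraries with those above. Control siRNA over untransfected cells gave PHGDH 1.06 in resistant and −0.41 in parental cells, PSAT1 1.06 and −0.96, and PSPH 0.42 and −0.53. SHMT2 had 0.30 and −0.25, MTHFD2 0.25 and −0.60, MTHFD1L 0.31 and −0.53, and SLC1A4 0.33 and −0.98. MTHFD1 had positive ratios in both, 0.24 and 0.69. PHGDH and PSAT1 were the 2 genes at least 2-fold higher in resistant cells, where 4.31% of all genes were, and 0 were 2-fold lower in parental cells, where 2.08% of all genes were. SLC1A4, at 35.5% of its untransfected FPKM in parental cells, was past 2-fold with 0.1 added (log2 ratio −1.42).

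Over the 6 libraries the levels of PHGDH and PSPH went together (Pearson r = 0.93 on log2 values), as did those of PSAT1 and SHMT2 (0.94), MTHFD2 and MTHFD1L (0.94) and SLC1A4 and MTHFD1L (0.93). MTHFD1 was the least like every other one, at −0.13 with the mean of the rest. Among 6744 other genes at 5 FPKM or more in all libraries, those most like the mean pattern of the 8 were TMEM256 (r = 0.990), AKR7A2, an aldehyde reductase (0.987), TPD52L1 (0.983), STOML2, a protein of the inner mitochondrial membrane (0.979), and ANKH, a pyrophosphate carrier (0.978). The most opposite were the cohesin subunit SMC3 (−0.989), PLXNB2, a semaphorin receptor (−0.989), SAFB2 (−0.988), CAMSAP3 (−0.986) and GTPBP3 (−0.982). These r values describe 6 points that share their libraries, and extremes of this size are picked from many genes.

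The balance between compartments was read from ratios of levels. The mitochondrial SHMT2 stood 14.0-fold over its cytosolic counterpart SHMT1 with EHMT2 siRNA, 5.72-fold with control siRNA and 4.38-fold without siRNA in resistant cells, and 6.33-fold, 3.30-fold and 4.96-fold in parental cells. The higher ratio with EHMT2 siRNA came from SHMT1, at 6.14 FPKM against 14.1 with control siRNA in resistant cells and 8.85 against 19.8 in parental cells. MTHFD2 stood 2.40-fold over MTHFD1 with EHMT2 siRNA and 1.87-fold with control siRNA in resistant cells, and 1.45-fold and 1.22-fold in parental cells. Without siRNA the ratio was 1.86 in resistant and 3.02 in parental cells, the highest of the 6.

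Among 19 other folate and purine synthesis genes at 1 FPKM or more the median knockdown ratio was −0.38 in resistant and −0.27 in parental cells. Of these, 11 were lower and 3 higher with EHMT2 siRNA in both lines, against 35.5% lower and 46.1% higher over all genes. In the fit to the 4 siRNA libraries 8 of 18 tested fell and 2 rose, where 18.7% and 23.8% of all genes did. The lowest were TYMS, thymidylate synthase and the target of 5-fluorouracil (fell by 1.20, limma adjusted p below 0.05 as for all named here), and SHMT1 (fell by 1.08). Among those that rose was the folate receptor FOLR1 (by 0.53). TYMS had 24.6 FPKM with EHMT2 siRNA, 61.2 with control siRNA and 294 without siRNA in resistant cells, against 42.1, 92.4 and 46.1 in parental cells, so the untransfected resistant library was far above the others. Of the 18 tested, 0 rose and 2 fell in resistant cells in the 4-library fit, where 4.49% and 4.47% of all genes did. The 2 were TYMS and the purine synthesis gene PFAS. The resistant over parental log2 ratio of TYMS was −0.76 with EHMT2 siRNA, −0.59 with control siRNA and 2.65 without siRNA. With the untransfected pair included, its line coefficient was 0.44 (limma adjusted p = 0.975), so its fall holds for the siRNA libraries alone. PFAS stayed below 0 there, at −0.55 (adjusted p = 0.922).

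Of 14 genes that break down or use serine and glycine, 4 rose and 2 fell with EHMT2 siRNA in the 4-library fit, in which 23.8% of all genes rose and 18.7% fell. Most lists of this paragraph are small, and their shares were not tested against those of all genes. The lowest were GCSH, the carrier protein of glycine cleavage (fell by 0.92), and SERINC2 (fell by 0.70). The highest were PTDSS1, which makes phosphatidylserine (rose by 0.88), and SERINC3 (rose by 0.69). Of 8 methionine cycle genes 0 rose and 3 fell: AHCY, which splits S-adenosylhomocysteine (by 0.86), MTAP (by 0.72) and MTR, methionine synthase (by 0.72). Of 12 other carriers 1 rose, the mitochondrial SFXN3 (by 1.32), and 2 fell, SFXN2 (by 0.74) and SLC38A2 (by 0.68). Of the 5 glycolytic genes around 3-phosphoglycerate, GAPDH (by 1.54) and PGAM1 (by 0.65) fell, and PKM (by 0.79), ENO1 (by 0.65) and PGK1 (by 0.39) rose.

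The known regulators of the pathway and the ATF4 programme, 17 measured genes with ATF4 among them, had line ratios of the same signs as the serine genes at the median. ATF4 had 249 FPKM with EHMT2 siRNA, 282 with control siRNA and 260 without siRNA in resistant cells, and 145, 181 and 397 in parental cells. The resistant over parental median of the 17 was 0.62 with EHMT2 siRNA, 0.53 with control siRNA and −0.61 without siRNA. In the 4-library fit 9 of 17 rose and 0 fell in resistant cells, among them CHAC1, a glutathione-degrading enzyme (by 2.47), DDIT3, a stress transcription factor (by 1.99), and ASNS, asparagine synthetase (by 1.94), where 4.49% of all genes rose. With EHMT2 siRNA their median was −0.20 in resistant and −0.10 in parental cells, and 5 fell and 3 rose, where 18.7% and 23.8% of all genes did. Those that fell included PYCR1, a proline synthesis enzyme (by 1.75), and MYC (by 1.48), and those that rose were the stress factors ATF3 (by 1.96) and DDIT3 (by 0.88) and the antioxidant regulator NFE2L2 (by 0.98).

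**Figure D4:**
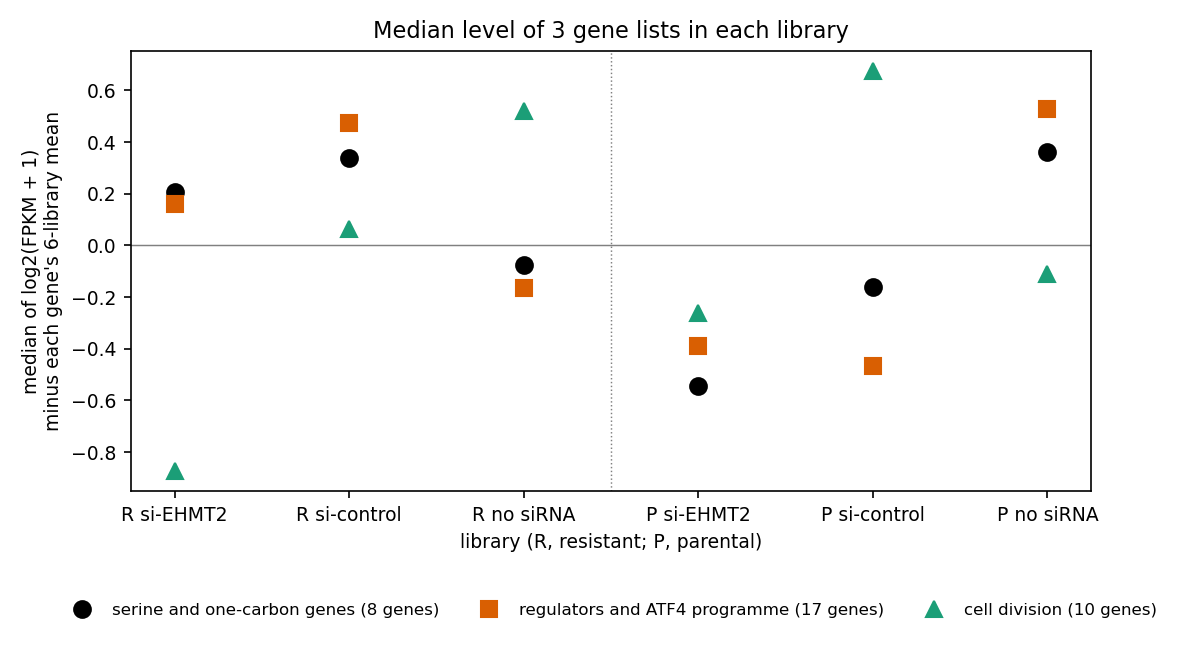
Median over the genes of each list of log2(FPKM + 1) minus the gene's mean over the 6 libraries, for 8 serine and one-carbon genes (black circles), 17 regulators and ATF4 programme genes (orange squares) and 10 cell division genes (green triangles), resistant libraries (R) left of parental ones (P). The circles were at 0.21, 0.34 and −0.08 in resistant cells and −0.54, −0.16 and 0.36 in parental cells. The squares had the same sign in every library, but were lowest in parental control siRNA cells (−0.47) where the circles were lowest in parental EHMT2 siRNA cells, and the triangles were lowest in resistant EHMT2 siRNA cells (−0.87).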

How the data were processed

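The authors deposited 1 table of FPKM per library. Per the labels' protocols, a TruSeq v2 kit made the libraries from total RNA. Reads were handled with StringTie 2.1.1, HISAT2 2.2.1, cutadapt 4.9 and FastQC 0.12.1 on build GRCh38, per the submitters' processing notes, which here have no order. Of the annotation release, strand setting and read numbers, none is given in the sources used here. Genes below 0.5 FPKM shared no common ratio between libraries (at most 4.23% within 1% of each other), so whole reads could not be recovered, and depth and counting error are unknown.

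Tables were joined by gene, and the row of highest mean was kept for a repeated symbol. Log2 ratios use FPKM + 1. limma 3.58.1 (R 4.3.3) was fitted on log2(FPKM + 1) to genes that reached 1 FPKM in 3 libraries or more, with line and treatment as terms, a mean-variance trend and Benjamini-Hochberg adjustment over all genes tested. The interaction of line and treatment served as the error (2 residual degrees of freedom). limma pools each gene's error with a prior from all genes (3.45 degrees of freedom in the fit to 6 libraries). P-values thus measure only the spread between these libraries, in large part that of other genes. The fit was tested on simulated data. Their errors were independent and drawn from the fit's own prior spread, so that test cannot vouch for the errors of these libraries.

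The 9 genes and the 6 lists were chosen with earlier results of these data known. Named outside them are EHMT2, EHMT1, the extremes of each list by mean knockdown ratio and genes that passed a test, of which the text gives a choice made after their values were seen. One result that this rule would name is not reported here. The resistant library without siRNA is labelled 5fu and the transfected ones 5fuR, both of which the series text gives for resistant cells. Exonic overlaps come from GENCODE 29, in which 19887 of 19942 symbols matched. Alternatives were other scalings, pseudocounts, filters and fold thresholds, the 4 siRNA libraries alone, and each library left out.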

Additional observations from a re-analysis of the deposited data

Results flagged for a closer look

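For 8 genes the resistant over parental log2 ratio had opposite signs with control siRNA and without siRNA. The ratio with control siRNA minus that without siRNA was 2.02 for PSAT1, 1.47 for PHGDH, 1.31 for SLC1A4, 0.94 for PSPH, 0.84 for MTHFD2, 0.84 for MTHFD1L, 0.56 for SHMT2 and −0.44 for MTHFD1. The knockdown ratio was above 0 in resistant and below 0 in parental cells for MTHFD2 (difference 0.34) and SHMT2 (difference 0.31). With 1 library in each group these differences were not tested.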

How the results depend on the processing

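No paired analysis was possible because the groups share only 1 replicate number; the line term of the fit sets treatments against each other within each line. Genes passing limma's test for EHMT2 siRNA numbered 0 in the fit to 6 libraries, 263 with a 5 FPKM filter (none of the 7 members it kept, which leaves out SLC1A4) and 4902 with the 4 siRNA libraries; leaving out each library gave 0 to 4904, with 4903 and 4904 without the resistant and the parental untransfected library. For the lines the 4 siRNA libraries gave 1032 against 0, and leaving out each library 0 to 1034, with calls only without an untransfected library. The calls for PHGDH, PSPH and MTHFD1 (knockdown) and PSAT1, PHGDH, SLC1A4, PSPH and MTHFD2 (line) thus rest on leaving out the untransfected pair. Knockdown coefficients near 0 turned positive with equal FPKM sums for PSAT1 (0.0338), SHMT2 (0.0238) and MTHFD2 (0.0216). With a library left out they ranged over −0.57 to 0.45 for PSAT1, −0.36 to 0.23 for SHMT2, −0.45 to 0.31 for MTHFD2, −0.37 to 0.0706 for MTHFD1L and −0.84 to 0.0322 for SLC1A4, the highest for SHMT2, MTHFD2 and SLC1A4 without parental EHMT2 siRNA cells. The called genes ranged over −1.57 to −0.35 (PHGDH), −0.80 to −0.32 (PSPH) and −0.53 to −0.20 (MTHFD1), PHGDH being nearest 0 without parental EHMT2 siRNA cells. Line coefficients of MTHFD1 were −0.0498 with quantile normalization and −0.0822 with the 4 siRNA libraries, and ranged over −0.0822 to 0.14 (MTHFD1), −0.0101 to 0.58 (MTHFD2) and −0.00107 to 0.42 (MTHFD1L). Those of the other called genes ranged over 0.20 to 1.18 (PHGDH), 0.17 to 1.18 (PSAT1), 0.34 to 1.10 (SLC1A4) and 0.0788 to 0.56 (PSPH), highest without an untransfected library. Equal FPKM sums put the all-gene median at 0.19 for knockdown in parental cells, 0.27 between untransfected lines and 0.18 for control siRNA over untransfected parental cells. The members' median minus it stayed at −0.43, −0.43 and −0.53, against −0.44, −0.46 and −0.56. The cause of these changes was not tested.

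Background counts of 2-fold genes also moved. With 0.1 added they were 757 (knockdown lower, resistant), 678 (parental), 705 (untransfected line pair, lower), 316 (line higher, EHMT2 siRNA), 313 (control siRNA) and 441 (control siRNA over untransfected parental cells, lower). At 1.5-fold they were 1571, 1525, 1174, 715, 750 and 955 in that order, and 1296 for control siRNA over untransfected resistant cells, higher. A 5 FPKM filter gave 295 for the untransfected line pair, and equal FPKM sums 158 for control siRNA over untransfected parental cells. Depth is unknown, so the counting error of SLC1A4 and ALDH1L2, the lowest genes, cannot be given.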
